A study of Homo sapiens with 6 samples.

Results

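Histone lysine methyltransferases and demethylases, the enzymes that place and remove methyl groups on histone tails, were followed in COV434 cells treated with 4HC, the active form of the chemotherapy drug cyclophosphamide (CTX). The members were taken by gene symbol, from a list chosen with earlier results of these data known. They were the KMT2, KMT5, NSD, SETD, SETDB, SUV39H, EHMT and SMYD genes with SETMAR, DOT1L and ASH1L, here called writers, and the KDM genes, here called erasers. The gene table held 49 of them among 16798 coding genes, of which 34 were writers and 15 were erasers. Another 3 genes that matched the name pattern were left out of the list.

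The comparison was between 3 control samples and 3 samples exposed to 15 µM 4HC for 24 h. COV434 is a human cell line that the labels describe as granulosa cells of wild-type genotype, and all 6 samples came from this line in the same serum-supplemented medium. The labels name no vehicle for the control and do not say whether the 3 samples of a group were separate cultures, so the p-values measure the spread between these samples, which may be technical. A single dose and time were sequenced, in bulk, and fewer cells of one kind cannot be told apart from less RNA per cell.

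The total of expected counts was between 16133786 and 16702316 per sample, and the first principal component, with 53.4% of the variance, separated the groups. All 10 p53 target genes listed as a treatment check were higher in 4HC, beside 19.2% of all tested genes. Among them were CDKN1A (log2 fold change 1.80), GDF15 (2.12) and TP53I3 (1.57). Of 12 proliferation genes 6 were higher, led by PCNA (1.04), beside the same 19.2%. Another 3 were lower, PLK1 (-0.73), CCNB1 (-0.57) and AURKA (-0.38), beside 17.1% of all tested genes. The lists were chosen with earlier results of these data known, so these counts are descriptions. The labelled cell type was only partly borne out by its markers. FOXL2, FSHR, CYP19A1, NR5A1 and STAR had group means of at most 0.0821 CPM, the read count scaled to library size. In contrast, HSD17B1 and AMH had control means of 14.2 and 5.19 CPM. Between 8 and 9 of 12 granulosa markers were below 1 CPM in each sample. WT1 made up most of their summed level, which was 235 to 243 CPM in control and 189 to 195 CPM in 4HC, and WT1 was the only one of the 4 tested markers that was called (-0.35). INHA, at 0.797 CPM in control, had -0.38 without a call. Markers of other ovarian cell types summed to 405 to 429 CPM in control and 408 to 412 CPM in 4HC, mostly COL3A1. LUM, DCN and ZP3 had control means of 65.8, 48.0 and 14.0 CPM. EPCAM, PECAM1 and CDH5 were at 0.0205 CPM or less, and 4 to 6 of 16 markers were at 0. None of the 8 tested passed with edgeR at an adjusted or an unadjusted threshold or with DESeq2, and 1 passed with limma on TPM. The part of the cell cycle, WT1 or these markers in the results below was not tested.

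Methylation of histone lysines marks the state of the underlying DNA. Trimethylated H3K4 lies at active promoters, methylated H3K36 over transcribed gene bodies, and methylated H3K9, H3K27 and H4K20 over silent or compacted regions. Writers carry a SET domain, except DOT1L, and draw the methyl group from S-adenosylmethionine. Erasers are either flavin-dependent amine oxidases (KDM1A and KDM1B) or JmjC-domain oxygenases that need iron and 2-oxoglutarate (the other KDM genes). In ovarian granulosa cells such marks change as follicles mature, and methylated H4K20 and H3K79 also bear on the choice of DNA repair pathway.

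The expression of this enzyme set moved downwards more often than upwards, and by small amounts. Of the 47 members that passed the filter on low counts, 13 were lower and 3 were higher in 4HC at an adjusted p below 0.05 by edgeR's quasi-likelihood test. The 16 called members were 34.0% of those tested, close to the 36.4% of all 12368 tested genes that were called. By direction, lower members made up 27.7% against 17.1% of all genes, and higher members 6.38% against 19.2%, a difference in split that was not tested. The median log2 fold change was -0.05 over the members and 0.005 over all genes. No member reached a fold change of 2 with an unadjusted p below 0.05, as 1.15% of all genes did, and the changes of the members ran from -0.39 (SETD1B) to 0.36 (SMYD4). In 22 members the 3 control and 3 4HC values did not overlap, beside 45.3% of all genes. SMYD1, a muscle methyltransferase, and SETD6, which methylates the NF-kB subunit RELA, did not pass the filter, with 0.123 to 0.493 and 0.362 to 0.724 CPM over the 6 samples. By counts, which are not scaled to transcript length, the lowest member tested was KDM4D, with 20 to 31 per sample. The highest by counts was NSD2, with 3847 to 4243.

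Writers and erasers were then taken apart. Among the 32 writers tested, 7 were lower (21.9%, near the 17.1% of all genes) and 3 were higher (9.38%, beside 19.2%). Among the 15 erasers, 6 were lower with edgeR and 4 with DESeq2, and none was higher with either, nor with edgeR at an unadjusted p below 0.05. The lower erasers were 40.0% of those tested, beside 17.1% of all genes. Of the 15 erasers, 13 had a negative fold change, whether called or not. The same held for 18 of the 32 writers and 6069 of all 12368 genes. The median log2 fold change was -0.02 for writers and -0.12 for erasers, and the difference between the classes was not tested. Restricting the lists to proteins with an established activity on histone lysines left 27 writers tested, with 5 lower (18.5%) and 2 higher (7.41%). It left 14 erasers, with 6 lower (42.9%). The shares of all genes were 17.1% lower and 19.2% higher.

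**Figure D1:**
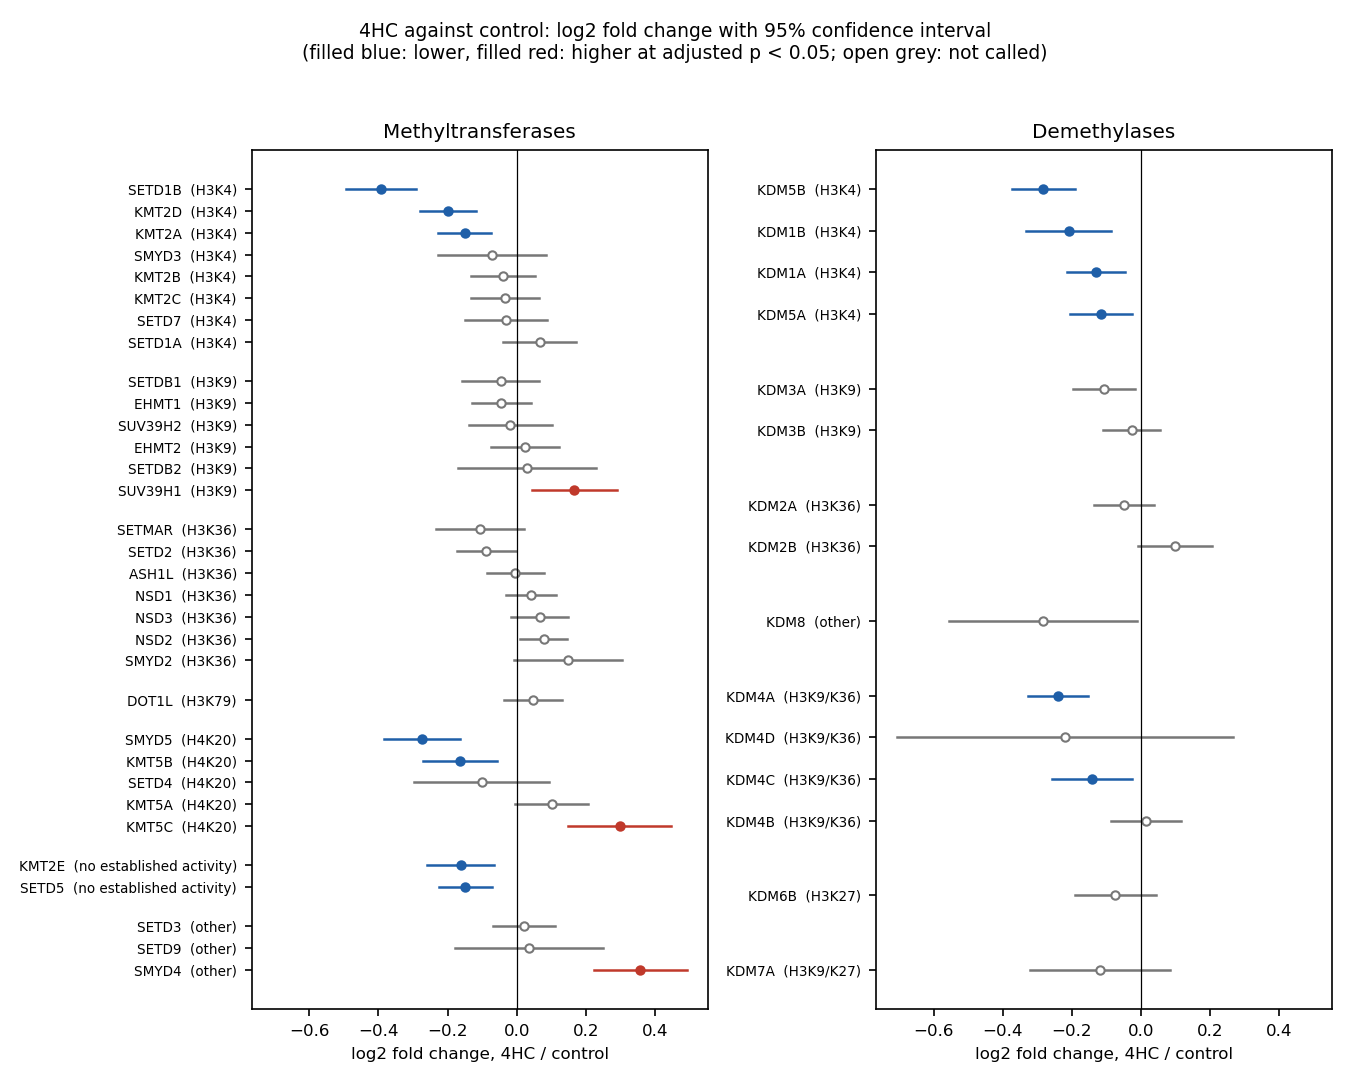
Log2 fold change of each tested member, 4HC over control, with its 95% confidence interval from edgeR, for 32 methyltransferases (left) and 15 demethylases (right), grouped by the lysine they act on. Filled blue points are the 13 lower members, filled red points the 3 higher members (SMYD4, KMT5C, SUV39H1) and open grey points those not called, and all 4 H3K4 demethylases in the list lie to the left of 0.

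Promoter sequences are shown for 4 of the members with the clearest changes, a pair that rose (SMYD4 and KMT5C) and a pair that fell (SMYD5 and KDM4A), so that their upstream elements can be compared. They come from RefSeq (GRCh38.p14), run 5′ to 3′ on the strand of the gene up to the base before its RefSeq start, and have in capitals every match, on either strand, to the GC box GGGCGG or the CCAAT box CCAAT. No capital marks another motif, and no 2 of these matches overlap.

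SMYD4 (chr17:1829903-1830004, minus strand, the 102 bases between its RefSeq start and that of its divergent neighbour RPA1, while the deposited table ends the gene at 1829923, inside this stretch): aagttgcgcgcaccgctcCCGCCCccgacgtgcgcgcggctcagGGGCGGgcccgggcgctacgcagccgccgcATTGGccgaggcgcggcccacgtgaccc
KMT5C (chr19:55339626-55339875, plus strand): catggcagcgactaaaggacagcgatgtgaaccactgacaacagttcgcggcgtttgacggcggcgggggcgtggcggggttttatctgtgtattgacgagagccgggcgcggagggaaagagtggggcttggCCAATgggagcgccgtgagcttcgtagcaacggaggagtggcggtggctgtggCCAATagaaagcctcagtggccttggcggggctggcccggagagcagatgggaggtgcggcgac
SMYD5 (chr2:73213995-73214244, plus strand): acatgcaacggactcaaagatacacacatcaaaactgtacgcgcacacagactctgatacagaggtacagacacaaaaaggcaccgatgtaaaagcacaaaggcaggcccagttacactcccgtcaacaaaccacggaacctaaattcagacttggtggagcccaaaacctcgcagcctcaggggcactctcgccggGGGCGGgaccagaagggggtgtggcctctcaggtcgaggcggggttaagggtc
KDM4A (chr1:43649899-43650148, plus strand): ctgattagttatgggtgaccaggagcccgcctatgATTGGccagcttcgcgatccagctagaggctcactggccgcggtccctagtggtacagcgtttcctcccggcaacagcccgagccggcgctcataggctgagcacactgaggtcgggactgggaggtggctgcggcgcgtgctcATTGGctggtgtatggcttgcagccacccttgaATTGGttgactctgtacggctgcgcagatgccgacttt

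SMYD4 held 2 GC boxes and 1 CCAAT box, KMT5C 2 CCAAT boxes, SMYD5 1 GC box and KDM4A 3 CCAAT boxes, so the CCAAT box occurred on both sides of the change. Over the 250 bases upstream of all 46 members with an entry, 76.1% held a GC box and 30.4% a CCAAT box, against 68.0% and 35.5% of 10180 promoters of tested genes. The ETS core CCGGAAG was in 15.2% of member promoters and 16.4% of all, and the TATA box TATAAA in 2.17% and 5.04%. The other motifs searched were the cyclic AMP response element TGACGTCA (2.17% and 2.89%), E2F as TTTCCCGC (4.35% and 2.34%) or TTTGGCGC (0% and 0.904%), and the full p53 site (0% and 0.0295%). The median GC content was 66.0% in members and 65.2% in all. SETD1B, DOT1L and NSD3 had no entry.

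H3K4 methylation had lower members on both the writing and the erasing side. Of the 8 H3K4 writers tested 3 fell and none rose, and all 4 H3K4 erasers in the list fell, 3 of them also with DESeq2, beside the 17.1% of all genes that were lower. The list does not hold every known H3K4 eraser. SETD1B (NCBI Gene 23067, chr12:121803665-121832656), the catalytic subunit of a COMPASS complex that trimethylates H3K4, had the largest decrease of any member. Its level was 66.3, 64.9 and 61.4 CPM in control and 49.3, 47.9 and 49.5 CPM in 4HC. Every 4HC sample lay well below every control sample. The log2 fold change was -0.39 (SE 0.050, edgeR adjusted p = 6.09e-09), a decrease of 23.8% that was called under every alternative tried. KMT2D, which monomethylates H3K4 at enhancers, fell by 0.20 on the log2 scale (adjusted p = 8.17e-05), and KMT2A, the MLL1 protein of leukaemia translocations, fell by 0.15 (adjusted p = 0.00126). The KMT2D call was lost with limma on FPKM, and the KMT2A call with limma on FPKM and on TPM. SETD1A, the closest paralog of SETD1B, was not called, with a value of 0.07 and a 95% interval from -0.04 to 0.17. KMT2B (-0.04), KMT2C (-0.03), SETD7 (-0.03) and SMYD3 (-0.07), which has also been assigned to H3K4, were not called.

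The H3K4 erasers in the list are KDM5A and KDM5B, which act on the trimethylated and dimethylated forms, and KDM1A and KDM1B, which act on lower forms. KDM5B (NCBI Gene 10765, chr1:202724495-202809470) had 87.6, 83.5 and 88.4 CPM in control and 71.4, 68.6 and 73.3 CPM in 4HC. The groups were separated by more than the range within either. Its log2 fold change was -0.28 (SE 0.045, adjusted p = 1.12e-06). KDM1B, the oocyte-associated paralog of KDM1A, fell by 0.21 (adjusted p = 0.00489) from 37.4, 35.8 and 32.8 CPM to 31.3, 29.5 and 30.8 CPM. KDM1A, or LSD1, fell by 0.13 (adjusted p = 0.0119), a call lost without control replicate 3 (adjusted p = 0.0916) and with limma on FPKM. KDM5A fell by 0.12 (adjusted p = 0.0376). The KDM5A call was the least stable of these, being lost without control replicate 1 or 2 or without 4HC replicate 2 or 3 (adjusted p up to 0.107). It was also lost with DESeq2, with library size alone and with limma on TPM and on FPKM.

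**Figure D2:**
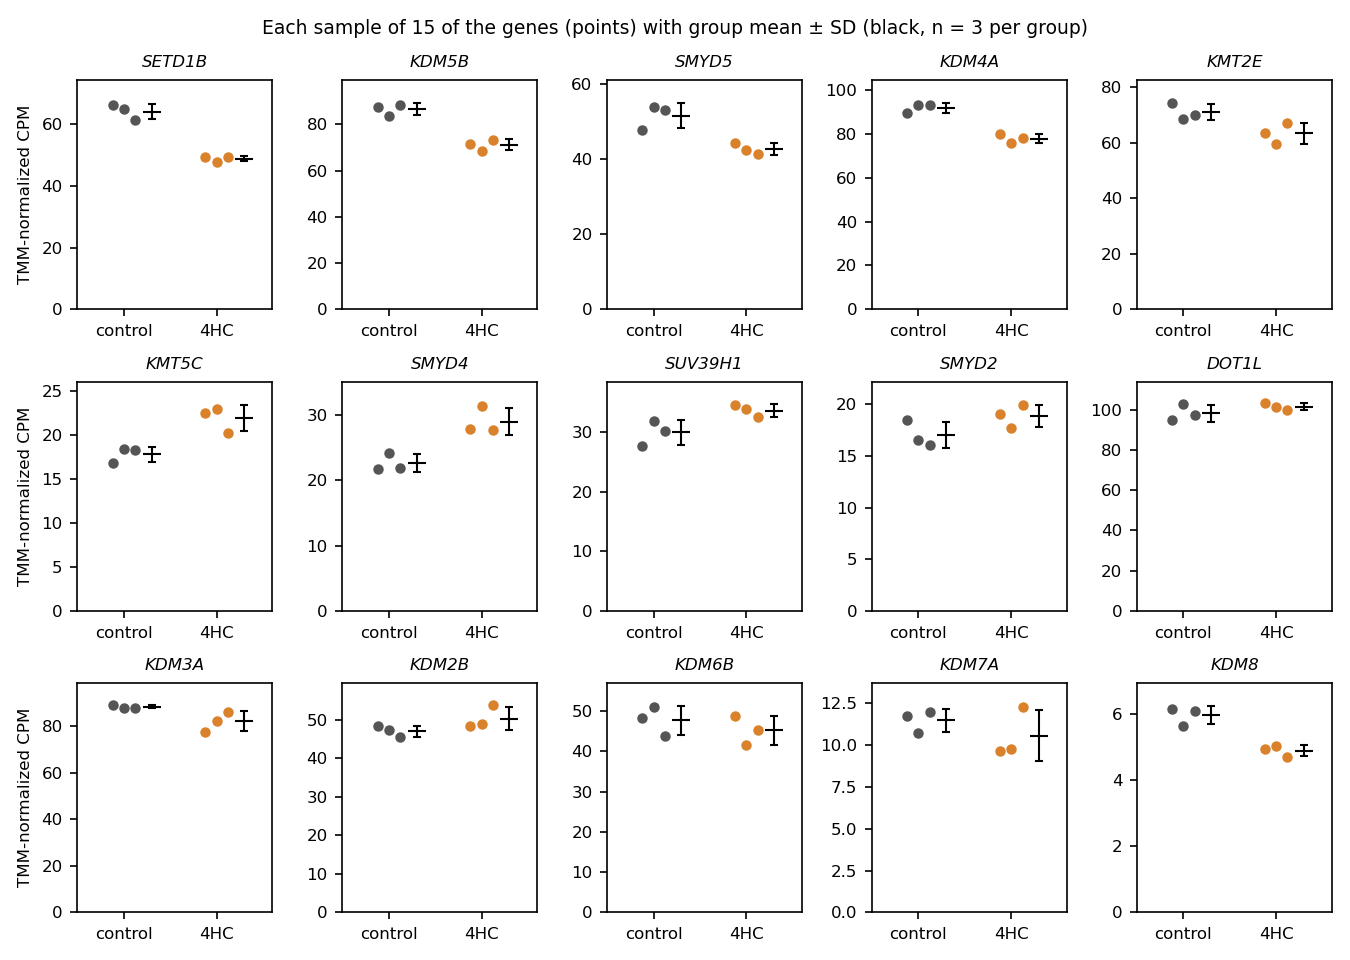
TMM-normalized CPM of 15 members in each control sample (grey) and each 4HC sample (orange), with the group mean ± SD in black (n = 3 per group, axes from 0). SETD1B, KDM5B, SMYD5 and KDM4A lie lower in all 3 4HC samples, KMT5C and SMYD4 lie higher, and the samples of DOT1L, SMYD2, KDM6B and KDM7A overlap.

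H3K9 methylation, the mark of heterochromatin, had 1 called gene among 6 writers tested (16.7%, beside 36.4% of all genes). SUV39H1 (NCBI Gene 6839, chrX:48695554-48742008), which trimethylates H3K9 at pericentromeric repeats, was the called writer. It had 27.8, 32.0 and 30.3 CPM in control and 34.6, 33.9 and 32.6 CPM in 4HC. The highest control sample and the lowest 4HC sample were close to each other without overlapping. The log2 fold change was 0.17 (SE 0.061, adjusted p = 0.0288), and the call was lost without 4HC replicate 1 or 2 or control replicate 1 or 3 (adjusted p up to 0.216). It was also lost with DESeq2 and with limma on TPM. Its paralog SUV39H2 (-0.02), the G9a and GLP pair EHMT2 (0.02) and EHMT1 (-0.05), and SETDB1 (-0.05) and SETDB2 (0.03), which silence transposable elements among other targets, were not called. The H3K9 erasers KDM3A and KDM3B were not called either. KDM3A, a gene known to respond to hypoxia, had 89.0, 87.9 and 88.0 CPM in control and 77.6, 82.3 and 86.2 CPM in 4HC. These values did not overlap, but the 4HC samples were spread widely, and the log2 fold change of -0.11 had an adjusted p of 0.0540. KDM3B had a value of -0.03.

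The KDM4 enzymes, which remove methyl groups from both H3K9 and H3K36, included 2 lower members of 4. KDM4A (NCBI Gene 9682, chr1:43650149-43705518) had 89.2, 93.1 and 93.1 CPM in control and 79.7, 75.6 and 77.9 CPM in 4HC. No 4HC sample reached the lowest control. Its log2 fold change was -0.24 (SE 0.044, adjusted p = 1.32e-05), and it was called under every alternative. KDM4C fell by 0.14 (adjusted p = 0.0454), just inside the threshold. Its call was lost without control replicate 1 or 2 or 4HC replicate 1 or 2 (adjusted p up to 0.202), as well as with DESeq2 and with limma. Library size alone, no filter and a replicate block also removed it. KDM4B had a value of 0.01, with a 95% interval from -0.09 to 0.12, and the sparsely expressed KDM4D had -0.22, with an interval from -0.71 to 0.27 that leaves its direction undetermined.

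None of the 7 H3K36 writers was called by edgeR or by DESeq2, while edgeR called 36.4% of all genes. With edgeR, 1 was higher (NSD2) and 1 lower (SETD2) at an unadjusted p below 0.05, and limma on TPM called 1 lower, SETMAR. The 3 NSD enzymes, which dimethylate H3K36, had values of 0.04 (NSD1), 0.08 (NSD2) and 0.07 (NSD3). NSD2 was at 237, 246 and 243 CPM in control and 256, 252 and 258 CPM in 4HC, a narrow gap with an adjusted p of 0.0677. SETD2, which trimethylates H3K36 behind RNA polymerase II, was at -0.09, ASH1L at -0.004 and SETMAR, a fusion of a SET domain with a transposase, at -0.11. SMYD2, which also methylates p53, had the largest value of these at 0.15 (adjusted p = 0.134). Its samples overlapped, with 18.5, 16.6 and 16.05 CPM in control and 19.0, 17.7 and 19.9 CPM in 4HC. Of the H3K36 erasers, KDM2A was at -0.05. KDM2B, which also recruits a Polycomb complex to CpG islands, had 48.3, 47.3 and 45.4 CPM in control and 48.3, 48.8 and 53.7 CPM in 4HC, with a value of 0.10 (adjusted p = 0.151).

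Among the H4K20 writers, called members moved in both directions. KMT5A places the first methyl group on H4K20, and KMT5B and KMT5C add the second and the third. KMT5C (NCBI Gene 84787, chr19:55339876-55348121) had 16.8, 18.3 and 18.2 CPM in control and 22.5, 22.9 and 20.2 CPM in 4HC. All 3 4HC samples were above the controls. Its log2 fold change was 0.30 (SE 0.074, adjusted p = 0.00109), an increase of 22.95%, with a call under every alternative. KMT5B, its paralog, had 52.0, 49.4 and 49.9 CPM in control and 41.8, 46.1 and 46.9 CPM in 4HC. It moved the opposite way, with a log2 fold change of -0.16 (SE 0.054, adjusted p = 0.0126), although the call was lost without 4HC replicate 1 or control replicate 1 (adjusted p up to 0.120). Per transcript length, the level of KMT5C relative to KMT5B was 0.541, 0.604 and 0.581 in control and 0.934, 0.826 and 0.737 in 4HC, as TPM ratios. This pair was singled out after its values were seen, and the ratio is a description. KMT5A was at 0.10, with a 95% interval from -0.005 to 0.21.

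SMYD5 (NCBI Gene 10322, chr2:73214245-73227221), which has been assigned to H4K20 trimethylation, had 47.8, 53.8 and 52.97 CPM in control and 44.4, 42.3 and 41.2 CPM in 4HC. Control replicate 1 was nearest to the 4HC samples but above all of them. Its log2 fold change was -0.27 (SE 0.054, adjusted p = 5.79e-05), called under every alternative. SETD4 was at -0.10 (adjusted p = 0.436). DOT1L, the only known writer of H3K79 methylation, had 94.8, 103 and 97.2 CPM in control and 103, 101 and 100.1 CPM in 4HC. These samples overlapped, and the value was 0.05 with a 95% interval from -0.04 to 0.13.

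SMYD4 (NCBI Gene 114826, chr17:1778116-1829923), a SET and MYND domain protein without an established histone substrate, had the largest increase of any member. It had 21.8, 24.2 and 22.0 CPM in control and 27.8, 31.5 and 27.8 CPM in 4HC. Each 4HC sample exceeded each control sample. Its log2 fold change was 0.36 (SE 0.067, adjusted p = 2.49e-05), or 28.1% higher, and the call held under every alternative. RPA1, a subunit of the single-strand DNA binding protein RPA, starts 103 bases away from SMYD4 on the opposite strand, across the sequence printed above. RPA1 was also higher, from 246 ± 4.22 to 288 ± 9.56 CPM (SD, 3 samples a group), with a log2 fold change of 0.22 (adjusted p = 4.69e-07). Pairs of this kind with starts within 1000 bases numbered 6, and SMYD4 with RPA1 was the only pair with both genes called in the same direction. The share of such pairs over all genes was not counted, and shared control of a pair was not tested. KDM5A starts 27 bases from CCDC77, which was higher (0.24, adjusted p = 0.0375) while KDM5A was lower, and KDM1B starts 253 bases from TPMT, which was not called (0.06). SETD3 starts 550 bases from CCNK, which was higher (0.24, adjusted p = 0.000251) while SETD3 was not called. In the pairs of EHMT2 with C2 (0.02 and 0.07) and of KDM4D with CWC15 (-0.22 and -0.07) neither gene was called.

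Both members with a SET domain but no established methyltransferase activity fell, beside 17.1% of all genes. KMT2E had 74.4, 68.7 and 70.2 CPM in control and 63.6, 59.8 and 67.3 CPM in 4HC. The highest 4HC sample came close to the lowest control. Its log2 fold change was -0.16 (SE 0.049, adjusted p = 0.00676), and the call was lost without 4HC replicate 2 or control replicate 1 (adjusted p up to 0.0889) and with limma. SETD5 fell by 0.15 (adjusted p = 0.00150), with 168 to 172 CPM in control and 148 to 161 CPM in 4HC. The SETD5 call was lost with limma on FPKM. With KMT2A and KMT2D, KMT2E made 3 lower genes of the 5 in the KMT2 family, beside 17.1% of all genes. SETD3, an actin histidine methyltransferase, was at 0.02 and SETD9 at 0.04.

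The remaining erasers were not called. KDM6B, which removes H3K27 methylation, had 48.2, 51.1 and 43.9 CPM in control and 48.9, 41.6 and 45.4 CPM in 4HC, with overlapping groups and a value of -0.07. KDM7A, assigned to H3K9 and H3K27, had 11.7, 10.7 and 12.01 CPM in control and 9.66, 9.74 and 12.3 CPM in 4HC, so that 4HC replicate 3 was above every control and the other two were below. Its value was -0.12 with a 95% interval from -0.32 to 0.08. KDM8, a JmjC protein whose histone demethylase activity is disputed, had 6.16, 5.66 and 6.09 CPM in control and 4.95, 5.06 and 4.71 CPM in 4HC. These groups did not overlap, and the fold change was as large as that of KDM5B (-0.28), but the gene had only 77 to 101 counts per sample and an adjusted p of 0.0959.

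To rank the members by level, TPM was used, which is scaled to transcript length. KDM1A was the most abundant member in control, at 57.4 ± 2.12 TPM (SD, n = 3), followed by NSD2 at 55.4 ± 1.09, and the spreads of these neighbours touched. In 4HC the order of the pair was NSD2 at 57.6 ± 0.71 and KDM1A at 52.2 ± 0.86 TPM. SETD3 came next in control (47.2 ± 0.70), then SETD5 (37.3 ± 0.69), SMYD5 (35.6 ± 2.18) and KDM4A (34.2 ± 0.84), and neighbours from SETD5 to KDM4A did not differ beyond their spread. At the lower end were KDM4D (1.02 ± 0.13), SETD6 (0.22 ± 0.06) and SMYD1 (0.10 ± 0.05). The summed TPM of all writers was 668, 678 and 683 in control and 670.2, 657 and 662 in 4HC, with overlapping groups. The summed TPM of all erasers was 282, 288 and 286 in control and 265, 254 and 267 in 4HC, without overlap. The ratio of writers to erasers was 2.37 ± 0.017 in control and 2.53 ± 0.056 in 4HC, with ranges of 2.36 to 2.39 and 2.47 to 2.59. The ratio was higher in 4HC also with established enzymes alone, at 1.98 ± 0.020 and 2.11 ± 0.043, and with CPM, at 2.65 ± 0.013 and 2.79 ± 0.039. As a sum over chosen genes it carries no test.

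**Figure D3:**
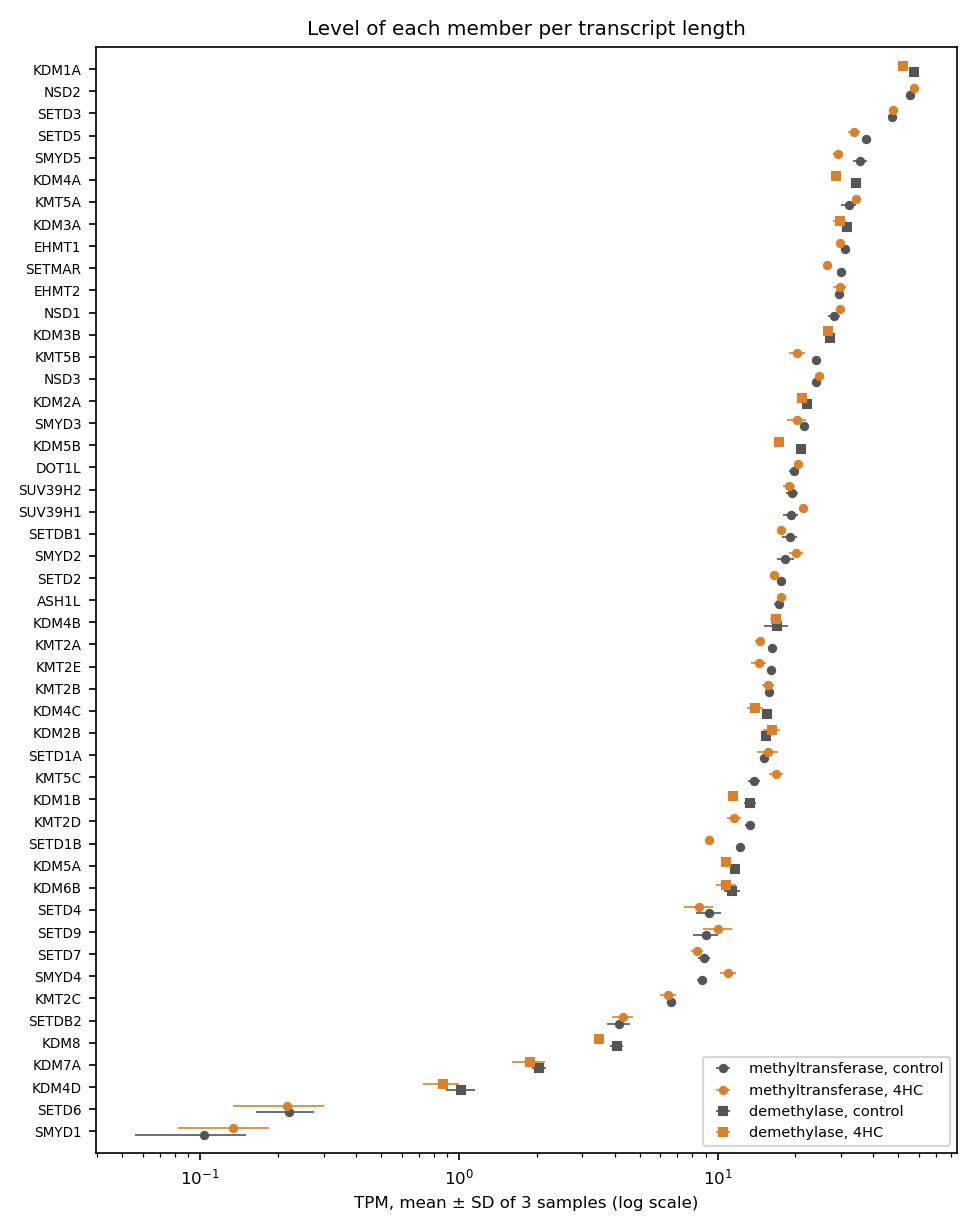
Mean TPM ± SD (n = 3 per group, log axis) of the 49 members in control (grey) and 4HC (orange), ordered by the control level, with circles for methyltransferases and squares for demethylases. Levels span from 0.10 TPM for SMYD1 to 57.4 TPM for KDM1A in control, and the distances between the grey and orange symbols of a gene are small beside that range.

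Other genes of the same machinery were counted from lists made with earlier results in view. Of 103 tested genes in the 6 related lists, 20 were higher and 25 lower, or 43.7%, beside 36.4% of all genes. Polycomb repressive complex 2, which writes H3K27 methylation and whose EZH catalytic subunits the naming rule did not cover, had 4 higher of 11 and none lower, also at an unadjusted p and with DESeq2. The called share of this list, 36.4%, equalled that of all genes. By direction, 19.2% of all genes were higher and 17.1% lower, and the difference in split was not tested. The higher genes were the catalytic subunits EZH1 (0.25, adjusted p = 9.34e-05) and EZH2 (0.18, adjusted p = 0.00121), the core subunit EED (0.22) and the accessory subunit PHF1 (0.25). EZH1 had 47.2, 43.5 and 45.9 CPM in control and 54.6, 52.2 and 56.1 CPM in 4HC, without overlap.

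The subunits that assemble with the KMT2 and SETD1 enzymes gave 2 higher and 3 lower of 13, near the 19.2% and 17.1% of all genes, and only 1 and 1 without 4HC replicate 2 or with limma. Without control replicate 3, or with DESeq2, 1 was higher. WDR82, which within this family of complexes is found only with SETD1A and SETD1B, fell by 0.23 (adjusted p = 8.23e-07), from 187, 192 and 190 CPM to 160, 159 and 165 CPM. ASH2L, a core subunit common to all these complexes, rose by 0.23 (adjusted p = 8.94e-05), and NCOA6, a partner of KMT2C and KMT2D, fell by 0.18, a call lost without 4HC replicate 2. Among other SET, PRDM and JmjC proteins, 4 of 17 were higher (23.5%) and 2 lower (11.8%), beside 19.2% and 17.1% of all genes. Only 2 were higher without control replicate 1, with DESeq2 or with limma. These included HSPBAP1 (0.65, from 3.02, 3.75 and 3.20 CPM to 5.25, 5.43 and 5.02 CPM) and RIOX2 (-0.42), a histidyl hydroxylase.

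Readers, the proteins that bind methylated lysines, were called most often among these lists, with 6 higher (20.7%) and 13 lower (44.8%) of 29, beside 19.2% and 17.1% of all genes. The lower readers numbered 8 without control replicate 3 and 6 to 8 with limma. CBX7, a Polycomb reader of methylated H3K27, rose by 0.59 (adjusted p = 3.06e-10), from 20.7, 25.7 and 22.3 CPM to 33.3, 36.6 and 33.7 CPM. TAF3, the TFIID subunit that binds trimethylated H3K4, rose by 0.47, and L3MBTL1, which binds lower methylated forms of H4K20, by 0.31. The lower readers included MORF4L1 (-0.19), which binds methylated H3K36 and was named after its value was seen. Partners of the erasers and writers had 1 higher (4.76%) and 5 lower (23.8%) of 21, beside 19.2% and 17.1% of all genes. The lower partners were led by MLLT3 (-0.31), a member of the complexes that bring DOT1L to elongating polymerase, and HDAC2 (-0.23), which works beside KDM1A. AFF1 was higher (0.23), a call not made with DESeq2 or with limma on TPM. The higher partners numbered 2 without 4HC replicate 1 or control replicate 3. For cofactor supply, 3 of 12 rose and 2 fell, beside 19.2% and 17.1% of all genes. The called share of this list was 41.7%, near the 36.4% of all genes. IDH1, which makes 2-oxoglutarate in the cytosol, fell by 0.34 (adjusted p = 1.12e-07), from 66.4, 65.8 and 70.5 CPM to 54.3, 52.97 and 53.01 CPM. Its mitochondrial counterpart IDH2 rose by 0.29 (adjusted p = 8.20e-09), and AHCY, which clears the product of every methyl transfer, rose by 0.19.

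**Figure D4:**
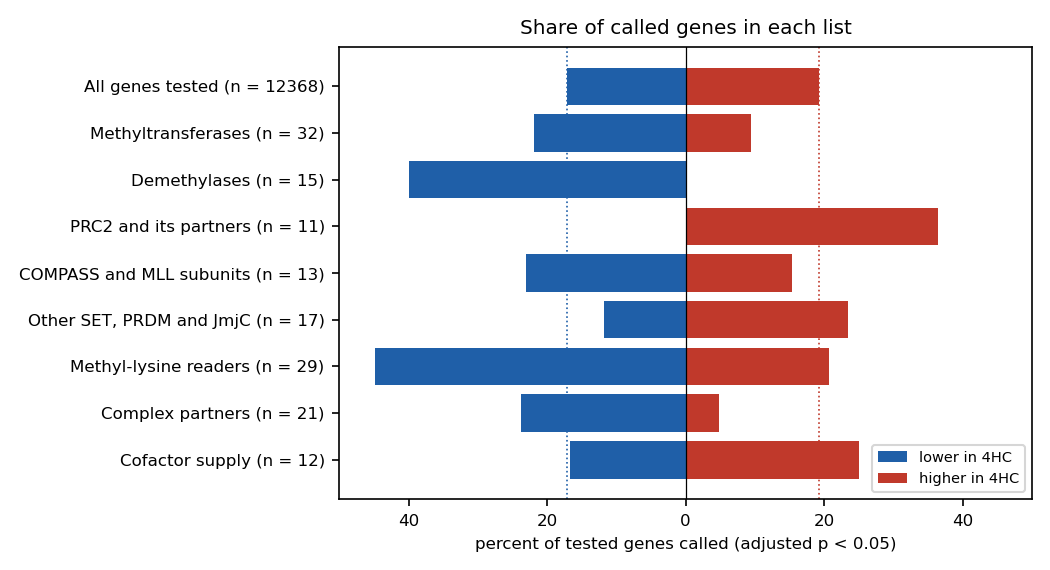
Percent of tested genes called lower (blue, left) and higher (red, right) in 4HC at an adjusted p below 0.05, for all 12368 genes, the 32 writers, the 15 erasers and the 6 related lists. The dotted lines mark the shares of all genes, 17.1% lower and 19.2% higher, and the erasers and the Polycomb list each have bars on a single side.

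The transcript table gave less resolution than the gene table. It listed 399 transcripts of the members, of which 263 were tested and 1 was called (0.380%), beside 1.29% of all 42216 transcripts tested. At an unadjusted p below 0.05 there were 27 member transcripts, and the share of all transcripts at that threshold was not counted. Assignment of reads between isoforms varied strongly between samples, with a biological coefficient of variation of 0.724 for transcripts and 0.0277 for genes. The called transcript was XM_011513557 of NSD2, with 353, 232 and 467 expected counts in control, and it was listed at 0 in all 3 4HC samples (adjusted p = 0.0194). That call was lost whenever 1 control sample was left out, and without 4HC replicate 2 or 3. The predominant NSD2 transcript, NM_001042424, took 54.1, 49.5 and 49.3% of the gene's counts in control and 63.3, 55.7 and 59.6% in 4HC, but was not called (0.30, adjusted p = 0.106). Other NSD2 transcripts were unstable within a group, such as NM_133334 with 233, 568 and 1.11 counts in 4HC, and XM_005248005 with 340, 0 and 607.

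Large shifts of single transcripts that did not pass occurred in KDM5B, KMT5B and KMT2C. NM_001347591 of KDM5B had 175, 121 and 178 counts in control and 3.77, 0 and 0 in 4HC (adjusted p = 0.0694), while its NM_001314042 had 19.1, 2.92 and 0 in control and 150.2, 181 and 57.1 in 4HC (adjusted p = 0.312). XM_017017878 of KMT5B had 20.5, 46.1 and 57.8 in control and at most 0.04 in 4HC (adjusted p = 0.0824). Of KMT2C, XM_017012481 was listed at 0 in control and had 28.4, 30.3 and 43.8 counts in 4HC (adjusted p = 0.0722), and XM_011516450 went from 86.6, 105 and 63.9 to 11.8, 17.6 and 0 (adjusted p = 0.438).

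The members were long genes, with a median span of 68.6 kb against 35.9 kb for all tested genes. Across 40 members with a usable span the Spearman correlation of span with log2 fold change was 0.05, and across 9756 genes it was -0.11, both given as descriptions across genes, which are not independent replicates.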

How the data were processed

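RNA-seq of COV434 cells comprised 3 control and 3 4HC samples, grouped by their labels. Per the labels, reads were filtered with SOAPnuke. The submitters' processing notes name HISAT2, Bowtie2, RSEM 1.3.1, DESeq2 1.4.5 and the build GRCh38.p13. The authors deposited RSEM-type expected counts (85.5% whole numbers) without normalization for 16798 genes and 79213 transcripts, with TPM scaled to transcript length and library and FPKM scaled to length and depth. The deposited fold changes and p-values of the authors' own comparison were not used. A second deposited gene table held the same values.

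Expected counts were rounded and tested with edgeR 4.0.16 (R 4.3.3) after TMM normalization and filterByExpr, in a quasi-likelihood fit of 4HC against control. P-values were adjusted by Benjamini-Hochberg over all 12368 genes or 42216 transcripts tested, and a gene was called at an adjusted p below 0.05. CPM are TMM-normalized. SE and 95% intervals came from the same fit. The script was tested on simulated data. The other settings tried were DESeq2 1.42.0, its size factors within edgeR, library size alone, other filters, limma 3.58.1 on log2(TPM + 1), log2(TPM + 0.1) and log2(FPKM + 1), a replicate block and leaving out each sample. Antisense or overlapping reads could not be separated, since strandedness is not given in the sources used here.

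The members and lists were chosen with earlier results of these data known. Each member is named. Values per sample are given for called members with an absolute log2 fold change of at least 0.25 and for the leading member of each lysine group, with a few others beside them. Of related lists the 3 called genes with the largest change are named, except 1 that is not reported here, and EZH2 and MORF4L1 were added after their values were seen. The 6 transcripts of members with the largest change at a mean of at least 10 counts are named, with 3 further NSD2 transcripts. Spans of the deposited table were kept where they were within 1.5 times those of GENCODE release 29, since some mix locations. Promoters came from RefSeq (GRCh38.p14), matched by gene number for 46 of 49 members.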

Additional observations from a re-analysis of the deposited data

How the results depend on the processing

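Of 705 combinations of a member and an alternative, 631 kept the direction and the side of the threshold, 41 lost a call, 8 gained one and 25 changed sign without a call in either fit. Of the 16 called members, 7 (SETD1B, SMYD4, SMYD5, KMT5C, KDM1B, KDM4A and KDM5B) were called under every alternative and 10 in every fit that left out a sample. On log2(FPKM + 1) with limma, lower genes numbered 1343 over all genes, 7 of the members, 4 of the writers, 3 of the erasers and 16 of the related lists, and the medians were 0.0027 for writers and -0.0753 for erasers. Library size alone gave a writer median of -0.0040. The median of all genes was 0.0047 in the main fit, 0.0255 with library size alone and 0.0166 on log2(FPKM + 1), so it moved upwards as well. The cause was not tested. Leaving out 1 sample gave 9 to 13 lower members, 4 to 6 lower erasers, a writer median from -0.0453 (without control replicate 2) to -0.0063 (without control replicate 3) and 0 to 1 lower member transcripts. A minimum of 10 counts in every sample removed the called NSD2 transcript and called 1 member transcript higher and 0 lower.

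The sign changed for KMT2B on FPKM (0.0149), KMT2C without 4HC replicate 2 (0.0189), SETD1A without 4HC replicate 1 (-0.0043), SETD7 without control replicate 3 (0.0113), SUV39H2 by library size (0.0023), without 4HC replicate 1 (0.0276) and without control replicate 3 (0.0035), EHMT2 without 4HC replicate 1 (-0.0247) and control replicate 3 (-0.0161), SETDB2 without 4HC replicate 2 (-0.0318) and control replicate 2 (-0.0531), SETD9 without 4HC replicate 2 (-0.0252) and control replicate 1 (-0.0249), KDM3B on FPKM (0.0032) and KDM4B on TPM (-0.0133 and -0.0128) and without control replicate 3 (-0.0050). ASH1L, near 0 throughout, gave 0.0168 by library size, 0.0399 on FPKM, 0.0159 and 0.0151 on TPM, and 0.0001, 0.0068, 0.0049 and 0.0041 without single samples. With samples left out in turn, the other end of the range was -0.0644 for KMT2C, 0.1197 for SETD1A, -0.0578 for SETD7, -0.0518 for SUV39H2, 0.0526 for EHMT2, 0.0791 for SETDB2, -0.0236 for ASH1L, 0.1151 for SETD9 and 0.0389 for KDM4B.

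Samples with the same replicate number showed little shared deviation (correlations of 0.009, 0.069 and 0.030, beside -0.08 to 0.045 for differing numbers). Values this small, from 3 samples a group, cannot decide whether the numbers pair the samples. With the number as a replicate block, 4213 genes and 15 members were called, KDM4C being lost, and 0 member transcripts. Counts were lowest in KDM4D (20 to 31 per sample) and KDM8 (77 to 101) among the members tested, and their intervals were the widest.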
